A study of Mus musculus with 6 samples.

Results

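The desmosome genes Dsg1a, Dsg1b, Dsg2, Dsg3, Dsc1, Dsc2, Dsc3, Jup, Pkp1 and Dsp were followed in RNA sequencing of whole mouse skin. They were chosen by name, as core parts of the desmosome, from the table of 23951 gene symbols. Earlier results of these data were known when they were chosen. All 10 were found and measured. The study compared 3 JunBΔep mice with 3 control mice at an age of 6 to 7 months. It asked how skin that lacks the transcription factor JunB in its epidermis differs in gene expression. The JunBΔep mice (JunB dep in the labels, strain C57Bl/6) carry a floxed Junb allele that is deleted by a Cre recombinase driven from the keratin 5 promoter, so that basal keratinocytes and their descendants lose the gene while the other cells of the skin keep it. The controls (JunB +/+ in the labels) are of the same strain, and the study describes the JunBΔep skin as lesional. Mice are named here by their group and the replicate number, 0, 1 or 2, that the labels give.

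Desmosomes are the button-like junctions that hold keratinocytes together and anchor their keratin filaments. Their membrane-spanning cadherins, the desmogleins and the desmocollins, meet those of the neighbouring cell. Inside the cell the armadillo proteins plakoglobin (Jup) and plakophilin 1 (Pkp1) bind the cadherin tails, and desmoplakin (Dsp) links this plaque to keratins. The cadherins change with depth in the epidermis. Desmoglein 3, desmocollin 2 and desmocollin 3 belong mainly to the lower layers, and desmoglein 1 and desmocollin 1 to the upper ones. Mice carry several copies of the desmoglein 1 gene.

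None of the 10 genes was called between the groups. Values were compared on the log2(FPKM + 0.5) scale with limma over 17021 genes that averaged 0.1 FPKM or more, a set that holds all 10 members, and a gene was called at a Benjamini-Hochberg adjusted p below 0.05. FPKM are fragments scaled for transcript length and for sequencing depth, so levels can be set side by side between genes. The limma count was 0 of 10 members, where 1.38% of all genes tested were called. In this fit all 235 called genes were lower in JunBΔep skin and 0 were higher. That share is therefore no background for members with a fold change above 0. At an unadjusted p below 0.05 it was 1 of 10, Dsg1a, where the share of all genes was 7.56%. Dsg1a was also the only member whose groups did not overlap, with all 3 JunBΔep mice below all 3 controls. Over all genes tested, 9.16% lay that way round, and 5.62% had every JunBΔep mouse above every control, which was so for 0 members. These shares of members are close to those of all genes. A p above the threshold does not show that levels were equal, and the standard errors given below set what 3 mice a group could resolve.

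The larger differences were between mice. In 8 of the 10 genes the highest of the 6 values was in the library labelled JunBΔep replicate 0, against 29.7% of all genes tested, and in Dsg1a that library held the lowest value. Its median difference from the control mean over the 10 members was 1.16 on the log2 scale. It was 0.12 in JunBΔep replicate 1 and -0.32 in JunBΔep replicate 2. The control mice themselves were at 0.17, -0.37 and 0.13, so replicates 1 and 2 lay within the range of the controls. The median over all genes tested stayed between -0.02 and 0.00 in every mouse.

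**Figure D1:**
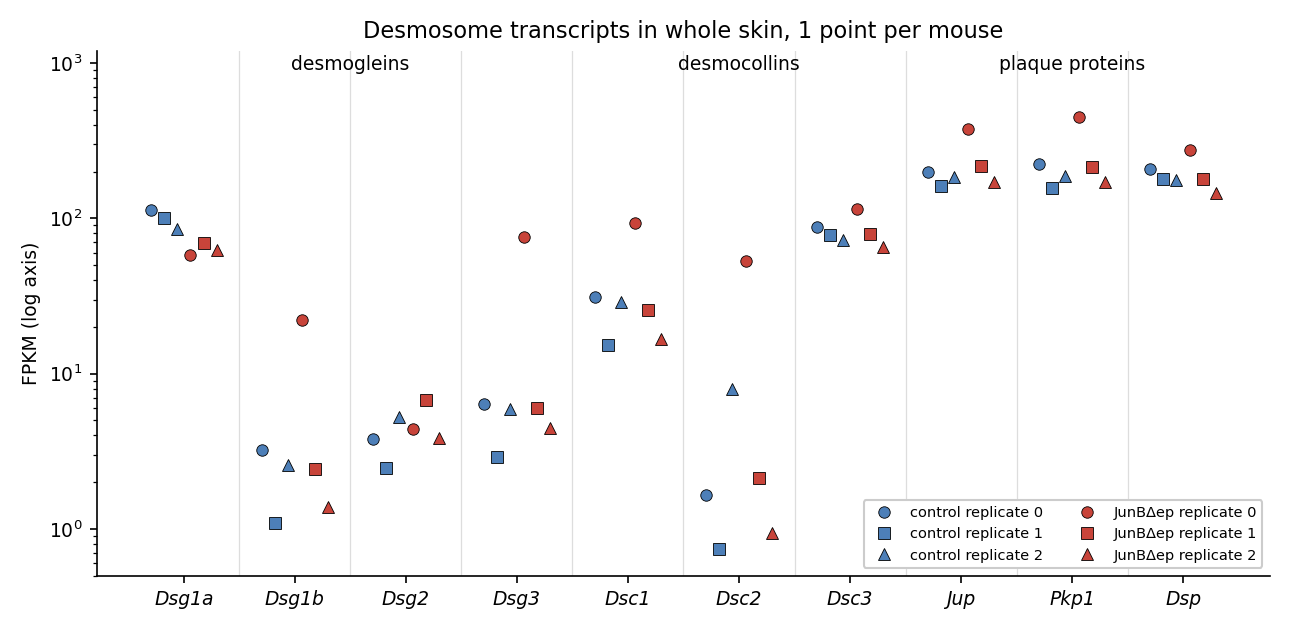
Level of each desmosome transcript in FPKM (log axis), with 1 point for each of the 3 control mice (blue) and 3 JunBΔep mice (red). The library labelled JunBΔep replicate 0 (red circles) is highest in 8 of 10 genes, and Dsg1a is the gene in which all 3 red points lie below all blue ones.

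That library has to be read with care. Controls had 59.3, 72.4 and 56.9 FPKM of Junb, the deleted gene, and JunBΔep replicates 1 and 2 had 42.8 and 28.0. The library labelled JunBΔep replicate 0 had 129.6 FPKM and so exceeded all controls. Since cells without the Cre still express Junb in whole skin, its level is only a partial check of the label, and each direction that includes this library takes the label as given. Its 8 skeletal muscle markers summed to 1483 FPKM, near the 1371 and 3265 FPKM of JunBΔep replicates 1 and 2 and far from the controls. The same library lists the basal keratin Krt14 at 0 FPKM beside 837 to 1304 FPKM in the other 5 mice, while its partner Krt5 was at 3725 FPKM, and a 0 in such a table can be a failed estimate. Of the mucosal keratins it held 1990 FPKM of Krt13 and 1356 FPKM of Krt4, which were at most 0.937 FPKM elsewhere, and Adipoq of fat cells was at 1.61 FPKM against 175 FPKM or more. Of 5 mucosal markers, 4 were highest in this library, and the summed level was 3840 FPKM against 24.1 to 55.6 FPKM in the other mice. By the numbers in the sample titles, it forms 1 series with control replicates 0 and 1, while control replicate 2 and JunBΔep replicates 1 and 2 form the other, so it is the only JunBΔep mouse of its series. What the series mark is not given in the labels. The summed FPKM of a library was 481078 to 630363, highest in this one, and read numbers are unknown. For these reasons the fold change of each member is given with and without it.

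The level of skeletal muscle markers also moved with the groups, while the groups overlapped in the summed level of pan-epithelial genes. The summed level of 8 skeletal muscle markers spanned 14258 to 18313 FPKM over the controls and 1371 to 3265 over the JunBΔep mice. All 8 were lower in every JunBΔep mouse (7 called). These calls were lost with a block on replicate number or on title series, where 0 genes were called. They were also lost without control replicate 0, 1 or 2 or JunBΔep replicate 1. Of 9 pan-epithelial genes, 8 had a positive log2 fold change and 0 were called by limma, with 1 at an unadjusted p below 0.05. Their summed level spanned 416 to 467 FPKM over the controls and 466 to 833 over the JunBΔep mice, and their median log2 fold change was 0.50, beside 0.43 for the 10 desmosome genes and 0.03 for all genes tested. Without the library labelled JunBΔep replicate 0 these medians were 0.30, with 9 of 9 above 0, and -0.15 and 0.03. Epcam, a surface protein of epithelial cells, was the highest of them, at 49.4 to 69.9 FPKM over the controls and 90.4 to 122 over the JunBΔep mice (log2 fold change 0.87, limma adjusted p = 0.192), and Ovol2, an epithelial transcription factor, the lowest at -0.40. In such bulk samples fewer cells of a type and less RNA per cell cannot be told apart. The part of these shifts in the desmosome values was not tested.

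Dsg1a, the desmoglein 1 gene with most of the transcript in this skin, had 113, 101 and 85.0 FPKM in the 3 control mice. The 3 libraries labelled JunBΔep replicates 0, 1 and 2 had 58.1, 69.0 and 62.2 FPKM. All 3 JunBΔep values lie below the lowest control, and the 3 are close to each other. The means were 99.5 ± 14.0 FPKM (SD, n = 3) and 63.1 ± 5.49 FPKM (SD, n = 3), so that the JunBΔep mean was 63.4% of the control mean. The log2 fold change was -0.65 (SE, the standard error, 0.17, limma adjusted p = 0.257), which does not pass the threshold. It was -0.59 without the library labelled JunBΔep replicate 0 (limma adjusted p = 0.418), a similar size. The fold change was below 0 in all 19 alternatives that give Dsg1a a value, between -1.05 and -0.55. Within the title series, with no test, the difference was -0.87 for the library labelled JunBΔep replicate 0 against 2 controls and -0.37 for JunBΔep replicates 1 and 2 against control replicate 2.

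Dsg1b, the second desmoglein 1 gene, was a minor transcript in 5 of the mice. Controls had 3.25, 1.09 and 2.59 FPKM, JunBΔep replicates 1 and 2 had 2.42 and 1.39, and the library labelled JunBΔep replicate 0 had 22.1. Replicates 1 and 2 sit inside the control range, and the remaining library is 6.80 times the highest other value. Its log2 fold change was 0.92 (SE 0.96, limma adjusted p = 0.752) with it and -0.17 without it. Dsg1c, the third copy, was below 0.2 FPKM in every mouse.

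The desmoglein 1 genes are close copies of each other, and the alignment allowed a read to match in several places, so the split of reads between them is uncertain. Their sum depends less on that split but is not free of it, since FPKM are scaled by the length of each gene and the merged exons of Dsg1a span 5686 bases against 3965 in Dsg1b and 4088 in Dsg1c. In FPKM it was 116, 102 and 87.7 for the controls, against 80.3, 71.6 and 63.7 for the libraries labelled JunBΔep replicates 0, 1 and 2. The groups do not overlap in the sum either, although the gap narrowed to 87.7 against 80.3 FPKM. For the summed genes the log2 fold change was -0.50 (SE 0.18, limma adjusted p = 0.527). Within the sum, Dsg1b made up 1.07% to 2.95% in controls, 3.38% and 2.18% in JunBΔep replicates 1 and 2, and 27.5% in the library labelled JunBΔep replicate 0.

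Dsg3, the desmoglein of basal keratinocytes and of mucosal epithelium, had the highest log2 fold change of the 10 members. The controls had 6.34, 2.90 and 5.89 FPKM and the libraries labelled JunBΔep replicates 0, 1 and 2 had 76.3, 6.05 and 4.48. Replicates 1 and 2 again lie within the controls, while the library labelled JunBΔep replicate 0 was 15.1 times the control mean. The log2 fold change of 1.36 (SE 1.06, limma adjusted p = 0.722) became 0.11 (SE 0.37) without that library. The mucosal markers were high in the same library, as given above, and their part in the Dsg3 value was not tested.

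Dsg2, the desmoglein of simple epithelia, which is low in interfollicular epidermis, did not share this pattern. Control mice had 3.79, 2.48 and 5.28 FPKM, while the libraries labelled JunBΔep replicates 0, 1 and 2 had 4.40, 6.78 and 3.86, the highest being replicate 1. The library labelled JunBΔep replicate 0 was inside the control range here. A log2 fold change of 0.36 (SE 0.34, limma adjusted p = 0.735) resulted, or 0.42 without that library. Other mice moved it more, to 0.11 without control replicate 1, 0.14 without JunBΔep replicate 1 and 0.59 without control replicate 2.

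**Figure D2:**
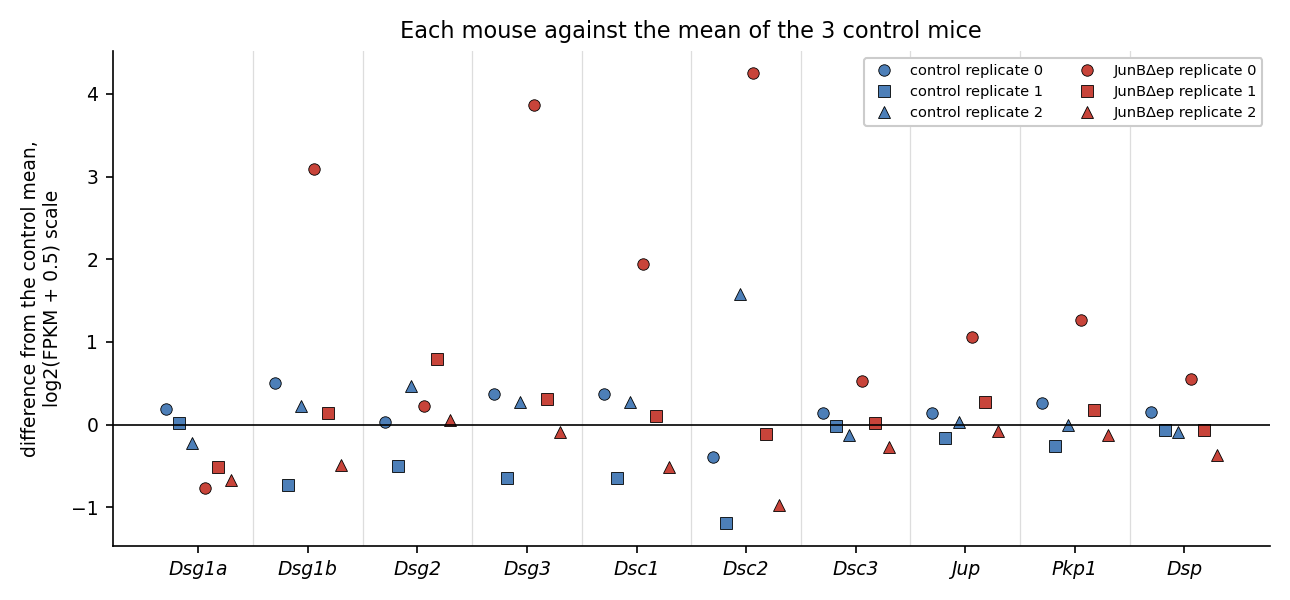
Difference of each mouse from the mean of the 3 control mice on the log2(FPKM + 0.5) scale, with controls in blue and JunBΔep mice in red. The library labelled JunBΔep replicate 0 stands at 4.25 in Dsc2, 3.86 in Dsg3 and 3.10 in Dsg1b, whereas JunBΔep replicates 1 and 2 stay within 1 unit of the control mean in every gene.

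Dsc2, the most widely expressed desmocollin, varied most among the controls. Control replicates 0, 1 and 2 had 1.66, 0.742 and 7.99 FPKM, a span of 10.8 times, where no other member spanned more than 2.98 times. The libraries labelled JunBΔep replicates 0, 1 and 2 had 53.3, 2.12 and 0.946 FPKM. Replicates 1 and 2 are inside this wide control range, and the library labelled JunBΔep replicate 0 is 6.67 times its top. With all mice the log2 fold change was 1.05 (SE 1.48, limma adjusted p = 0.811) and -0.54 without that library.

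Dsc1, the desmocollin of the upper layers, had values of 31.2, 15.2 and 29.1 FPKM for controls and of 93.9, 25.9 and 16.6 for the libraries labelled JunBΔep replicates 0, 1 and 2. Only the library labelled JunBΔep replicate 0 lies outside the control range, at 3.73 times the control mean. Its log2 fold change was 0.51 (SE 0.66, limma adjusted p = 0.797), against -0.20 without that library.

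Dsc3, the main desmocollin of this skin, varied little among the controls, which had 87.6, 77.9 and 72.3 FPKM. The libraries labelled JunBΔep replicates 0, 1 and 2 were at 114, 79.9 and 65.4. The groups overlap, and the library labelled JunBΔep replicate 0 is 1.31 times the highest control. Its log2 fold change was 0.09 (SE 0.24, limma adjusted p = 0.899) and -0.13 without it.

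The balance of cadherins within a mouse does not depend on how libraries are scaled to each other. Among the desmogleins, Dsg1a took 80.3% to 93.9% of the summed FPKM in controls, 73.6% and 86.2% in JunBΔep replicates 1 and 2 and 35.9% in the library labelled JunBΔep replicate 0. In that library Dsg3 was the leading desmoglein with 47.2%, beside 2.70% to 5.57% in controls and 6.46% and 6.20% in JunBΔep replicates 1 and 2. In JunBΔep replicates 1 and 2 the FPKM of Dsg3 lay within the control range. The desmogleins summed to 93.6 and 72.2 FPKM there, against 106 to 126 FPKM in controls. They summed to 162 FPKM in the library labelled JunBΔep replicate 0. Unlike the shares, these sums depend on how libraries are scaled. Among the desmocollins, Dsc3 led in every mouse, with 66.1% to 83.0% in controls, 74.0% and 78.8% in JunBΔep replicates 1 and 2 and 43.7% in the library labelled JunBΔep replicate 0. Dsc2 made up 20.4% there and 0.791% to 7.31% in the other 5 mice. These shares are descriptions with no test.

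**Figure D3:**
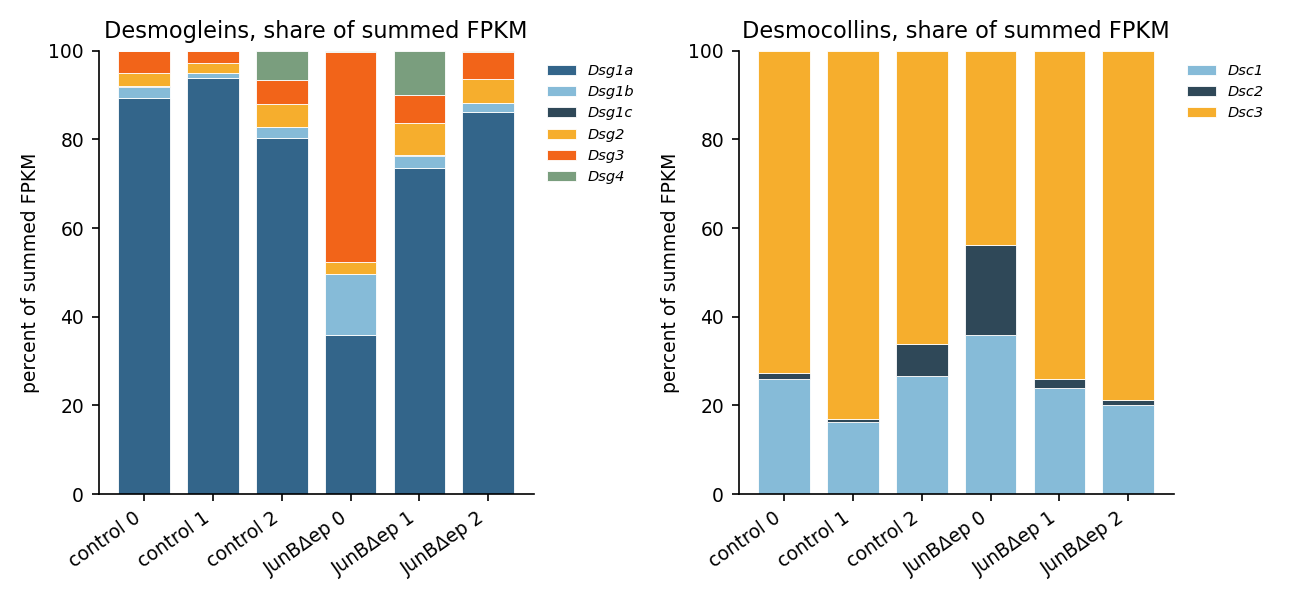
Make-up of the desmogleins (left) and desmocollins (right) in each of the 6 mice, as a percentage of the summed FPKM of the family. Dsg1a fills most of the desmoglein bar except in the library labelled JunBΔep replicate 0, where Dsg3 takes 47.2%.

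The plaque genes were the most abundant members. Jup encodes plakoglobin, which sits in desmosomes and also in adherens junctions. Its level was 198, 161 and 184 FPKM for the controls and 376, 218 and 171 for the libraries labelled JunBΔep replicates 0, 1 and 2. Replicate 2 lies within the controls, replicate 1 is above the highest control, and the library labelled JunBΔep replicate 0 is at 2.08 times the control mean. Its log2 fold change was 0.42 (SE 0.32, limma adjusted p = 0.722), and 0.10 without that library.

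Pkp1 encodes plakophilin 1, a plaque protein of stratified epithelia, and ran closely beside Jup. Controls measured 225, 158 and 188 FPKM, and the libraries labelled JunBΔep replicates 0, 1 and 2 measured 452, 213 and 172. Replicates 1 and 2 fall inside the control range and the library labelled JunBΔep replicate 0 is at 2.01 times the highest control. Its log2 fold change was 0.44 (SE 0.39, limma adjusted p = 0.725) and 0.03 without it.

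Dsp encodes desmoplakin, the plakin that ties keratin filaments to the plaque. The control mice measured 208, 179 and 177 FPKM, against 275, 179 and 145 in the libraries labelled JunBΔep replicates 0, 1 and 2. The JunBΔep values lie on both sides of the controls, with replicate 2 below all of them. The log2 fold change was 0.04 (SE 0.27, limma adjusted p = 0.966) and -0.22 without the library labelled JunBΔep replicate 0.

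Set against Dsp within each mouse, Jup and Pkp1 stood higher in JunBΔep skin and Dsg1a lower. These ratios share Dsp as their denominator. The ratio of Jup to Dsp was 0.954, 0.898 and 1.04 in controls and 1.37, 1.22 and 1.18 in JunBΔep replicates 0, 1 and 2. For Pkp1 to Dsp it was 1.08, 0.881 and 1.06 against 1.64, 1.19 and 1.19. The ratio of Dsg1a to Dsp was 0.543, 0.563 and 0.480 against 0.211, 0.385 and 0.429. In none of these 3 ratios do the groups overlap. The other 6 members overlapped in their ratio to Dsp, among them Dsc3 at 0.409 to 0.435 in controls and 0.415 to 0.451 in JunBΔep mice. Over all other genes tested, the ratio to Dsp was higher in every JunBΔep mouse for 5.52% and lower for 5.35%. The summed desmocollins over the summed desmogleins were 0.875 to 1.03 in controls and 1.15 to 1.62 in JunBΔep mice, while Pkp1 over Jup overlapped, at 0.981 to 1.13 and 0.979 to 1.20. Ratios were chosen after the levels of the members had been seen, so they are given with no test.

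**Figure D4:**
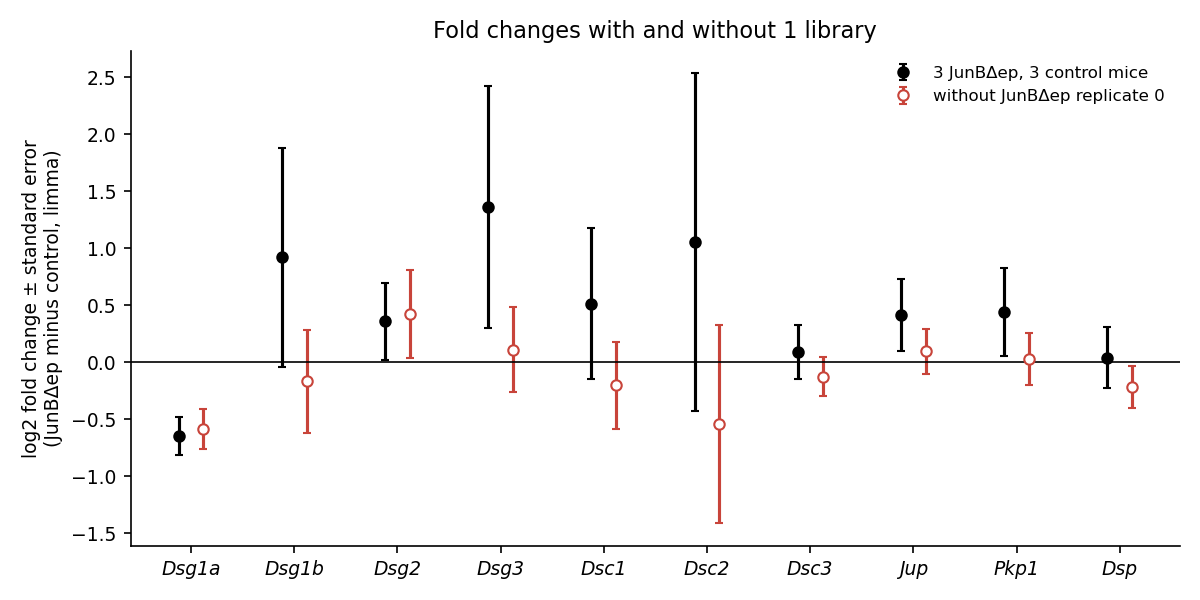
Log2 fold change of each member (JunBΔep minus control, limma) with its standard error (SE), from all 6 mice (black) and without the library labelled JunBΔep replicate 0 (open red). With all mice 9 of 10 points are above 0, without that library 4 of 10 are (53.4% and 54.0% of all genes tested), and Dsg1a is at -0.65 and -0.59.

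Leaving out the library labelled JunBΔep replicate 0 took the median log2 fold change of the members from 0.43 to -0.15, and the number above 0 from 9 to 4 of 10. Over all genes tested the median was 0.03 in both fits, and 53.4% and 54.0% were above 0. Other mice also moved the median of the members, to 0.25 without control replicate 1 and 0.69 without JunBΔep replicate 2, with 9 of 10 above 0 in both. The members that stayed above 0 were Dsg2, Dsg3, Jup and Pkp1, with values of 0.03 to 0.42 and no limma adjusted p under 0.808.

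Shifting every mouse by the mean log2 level of the 9 pan-epithelial genes moved all genes, whose median became -0.37, and the members, whose median became 0.03. The shift subtracts 1 constant from all genes of a mouse, so by construction the members stay at 0.40 relative to the median of all genes. Under that shift Dsg1a had a log2 fold change of -1.05 (limma adjusted p = 0.157), the lowest of the members, and Dsg2, Dsc3 and Dsp were also below 0, as the shift lowers the fold change of every gene by the same amount.

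In the order of levels, Pkp1, Dsp and Jup led in control skin with means of 190.2, 188 and 181 FPKM, and their ranges overlap. Dsg1a and Dsc3 followed at 99.5 and 79.2 FPKM with overlapping ranges, then Dsc1 at 25.1 ± 8.66 FPKM (SD, n = 3), which was clear of both neighbours. Dsg3, Dsg2, Dsc2 and Dsg1b came last at 5.04, 3.85, 3.46 and 2.31 FPKM, and none of these differed from its neighbour beyond the spread between mice. In JunBΔep skin the plaque genes led again, but Dsc3 (86.5 ± 25.1 FPKM, SD, n = 3) stood above Dsg1a (63.1 FPKM), with overlapping ranges.

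The 7 cadherin members lie together on chromosome 18 of the mm9 build, with Dsg1c and Dsg4, in a stretch of 644 kb from 20119431 to 20763022. The desmocollins are on the minus strand and the desmogleins on the plus strand. Dsc1 (20243204 to 20273274) and Dsc2 (20189134 to 20218055), which both had their highest value in the library labelled JunBΔep replicate 0, are next to each other. That library was highest in 8 of the 10 members, among them Pkp1, Jup and Dsp on other chromosomes, so this is not particular to neighbours. Dsg1a (20469312 to 20501851) and Dsg1b (20535230 to 20568697) are neighbours too and were at opposite ends in that library. The split of reads between these copies is uncertain, as given above.

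Outside this cluster each plaque gene is alone. Pkp1 lies on chromosome 1 from 137767972 to 137815784, Jup on chromosome 11 from 100230272 to 100259077 and Dsp on chromosome 13 from 38243197 to 38290446, all on mm9.

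Promoter sequences from RefSeq on build GRCm38.p6 were at hand for Jup and Dsp among the 10 members. They are shown because no other member had an entry, and because JunB is a subunit of AP-1, which binds the letters TGANTCA. Each runs from 250 bases before to 50 bases after the start of the gene. Capitals mark the GC box GGGCGG on either strand and, in Dsp, the AP-2 site GCCNNNGGC, which shares 1 base with a GC box. The Jup window is chr11:100397741-100398040 on the minus strand and the Dsp window is chr13:38151044-38151343 on the plus strand.
Jup: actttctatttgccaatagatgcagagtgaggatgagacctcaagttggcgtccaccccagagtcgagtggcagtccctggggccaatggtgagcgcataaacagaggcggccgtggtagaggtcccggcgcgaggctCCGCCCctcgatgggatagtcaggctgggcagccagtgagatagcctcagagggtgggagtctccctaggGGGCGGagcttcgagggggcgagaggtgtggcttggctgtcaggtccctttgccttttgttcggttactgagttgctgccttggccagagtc
Dsp: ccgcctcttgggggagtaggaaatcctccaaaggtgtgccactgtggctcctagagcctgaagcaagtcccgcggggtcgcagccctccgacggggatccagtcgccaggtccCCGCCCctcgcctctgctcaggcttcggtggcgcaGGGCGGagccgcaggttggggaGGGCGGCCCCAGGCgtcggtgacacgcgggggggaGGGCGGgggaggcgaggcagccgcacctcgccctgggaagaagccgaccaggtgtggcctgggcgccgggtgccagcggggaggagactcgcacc

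The AP-1 letters TGANTCA were in neither window on either strand, where 7.81% of the 32851 promoters held them. This says only that these letters are not in these windows. The GC box occurred 2 times in Jup, at -112 and -42 from the start, and 4 times in Dsp, at -137, -102, -80 and -45. It was found in 35.7% of all promoters. The AP-2 letters were at -75 in Dsp and not in Jup, and 16.6% of all promoters held them. The windows were 60.7% (Jup) and 73.0% (Dsp) G and C, where the median of all promoters was 52.7%.

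Of 9 other desmosome genes, 0 were called by limma and 0 had an unadjusted p below 0.05. Their median log2 fold change was 0.20 with all mice and 0.02 without the library labelled JunBΔep replicate 0, with 6 above 0 and 3 below in both. Pkp3, a plakophilin found throughout the epidermis, measured 126, 139 and 134 FPKM in the controls, and 278, 211 and 128 in the libraries labelled JunBΔep replicates 0, 1 and 2. It is higher than every control in 2 of the 3 JunBΔep mice, at a log2 fold change of 0.55 (SE 0.30, limma adjusted p = 0.722) and 0.30 without the library labelled JunBΔep replicate 0. Pkp2, the plakophilin of simple epithelia and heart, spanned 4.12 to 4.96 FPKM over the controls and was 2.23, 4.52 and 3.81 in the same 3 libraries, lowest in the library that is highest for Pkp1 and Pkp3.

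Perp, a tetraspan membrane protein of desmosomes, was the most abundant gene of this list, at 889 to 1219 FPKM over the controls and 1646, 1119 and 959.7 in the libraries labelled JunBΔep replicates 0, 1 and 2. Evpl, a plakin of the cornified envelope, spanned 45.0 to 54.4 FPKM over the controls and measured 75.7, 55.1 and 46.0 in those libraries. Ppl, its partner, spanned 71.1 to 88.9 FPKM and measured 92.7, 66.5 and 69.7. Cdsn, the corneodesmosin that seals desmosomes in the cornified layer, measured 245, 176 and 242 FPKM in the controls, against 171, 203 and 207 in the libraries labelled JunBΔep replicates 0, 1 and 2. The groups overlap in each of these 4 genes. Kazn, which codes for the periplakin partner kazrin, was the 1 gene of the list with every JunBΔep mouse above every control, at 11.5 to 13.3 FPKM and 14.1 to 16.6 FPKM (log2 fold change 0.24, SE 0.16, limma adjusted p = 0.722, and -0.16 when mice were shifted to the pan-epithelial genes).

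Dsg4, the desmoglein of the hair shaft, followed neither group. Control replicates 0, 1 and 2 had 0.0199, 0.0208 and 6.94 FPKM, and the libraries labelled JunBΔep replicates 0, 1 and 2 had 0.514, 9.25 and 0.185. Only control replicate 2 and JunBΔep replicate 1 are high. The same 2 mice held the hair cortex and cuticle markers, whose summed level was 1073 and 1539 FPKM there and 4.37 to 64.1 FPKM in the other 4 mice. Krt31 was at 170.0 and 205 FPKM in these 2 mice and at most 10.5 FPKM elsewhere. Control replicate 2 was also the control with the highest Dsc2 (7.99 FPKM) and Dsg2 (5.28 FPKM), and JunBΔep replicate 1 had the highest Dsg2 of all (6.78 FPKM), but Dsc2 was at 2.12 FPKM in JunBΔep replicate 1. What the hair contributes to these values was not tested.

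**Figure D5:**
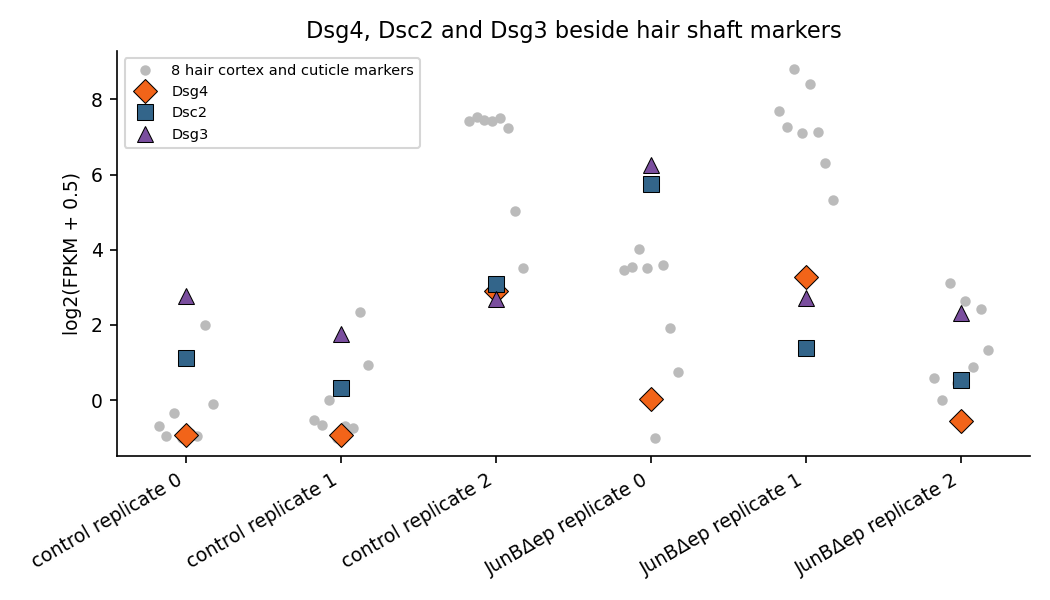
Level of Dsg4, Dsc2 and Dsg3 in each mouse on the log2(FPKM + 0.5) scale, beside 8 hair cortex and cuticle markers (grey points). Dsg4 is high in control replicate 2 and JunBΔep replicate 1, where the grey points are highest, while Dsc2 and Dsg3 are highest in the library labelled JunBΔep replicate 0.

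Enzymes that cut desmosomes at the skin surface were counted from a list of 6 proteases and inhibitors, of which 0 were called by limma and 0 had an unadjusted p below 0.05. Klk14, a kallikrein, measured 0.580, 0.436 and 1.27 FPKM in the controls, against 161, 2.60 and 1.05 in the libraries labelled JunBΔep replicates 0, 1 and 2 (limma adjusted p = 0.722). The first of these stands far above the rest, replicate 1 lies above the controls and replicate 2 within them. Klk5, which activates other kallikreins, measured 118, 111 and 80.3 FPKM in the controls and 85.7, 83.5 and 78.8 in those libraries. Between these extremes lay Klk7, the inhibitors Spink5 and Cst6, and Ctsl, with log2 fold changes of 0.07 to 0.55. Of the 6 genes 5 were above 0 with all mice and 1 without the library labelled JunBΔep replicate 0.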

How the data were processed

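RNA sequencing of whole skin from 3 JunBΔep and 3 control mice was analysed. Per the labels, poly(A) libraries were strand-specific, and the submitters' processing notes name FastQC, TopHat2 2.0.10, Bowtie 1.0.0, SAMtools 0.1.19 and Cufflinks on mm9. The authors aligned reads allowing several matches per read and deposited FPKM per gene and mouse, with replicates kept apart. Which program made the FPKM values, and whether they were scaled further, is not stated in those notes. The number of reads is unknown. Among genes below 0.15 FPKM the commonest ratio between libraries was shared by 14.2% to 17.4% of genes, and by that ratio the scaling totals were 0.955 to 1.14 times that of control replicate 0.

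Values were transformed to log2(FPKM + 0.5), which understates changes of low genes, and compared with limma 3.58.1 (R 4.3.3, intensity trend, no block, two-sided) over the 17021 genes averaging 0.1 FPKM or more. The study's own test, DESeq2 on read counts, was not repeated because counts were not used here. The fit was tested on simulated data. An exact permutation of 3 against 3 mice cannot give a p below 0.1, so none was run. Tables and figures used Python 3.11.15, pandas 2.3.3 and matplotlib 3.10.9. Positions are from GENCODE vM1 on mm9. All members and every gene of the list of other desmosome genes were named, with the extremes of the other lists. The members and all lists were chosen with earlier results of these data known. The alternatives were other pseudocounts, filters and scalings, limma settings, blocks, a 0 as missing, summed Dsg1 genes and each mouse left out.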

Additional observations from a re-analysis of the deposited data

How the results depend on the processing

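No alternative called any of the 10 members with limma, and in each the count at an unadjusted p below 0.05 was 1. The count of genes called, 235 with all 6 mice, was 0 with a replicate block and 0 with a block on the number series of the sample titles. The labels do not say what a shared replicate number means, and deviations of same-numbered mice correlated at 0.12, -0.23 and -0.43, so the numbers were not taken as pairs. Leaving out 1 mouse at a time gave 0 to 254 genes called, with 135 without the library labelled JunBΔep replicate 0 and 0 without control replicate 0, 1 or 2 or JunBΔep replicate 1. The number of members whose groups do not overlap was 1 to 2 in these fits, with Dsg2 added without control replicate 2 and Jup added without JunBΔep replicate 2. The share of all genes whose groups do not overlap, in either direction, was 14.8% with all mice, 25.7% and 40.0% in those 2 fits and 18.1% to 24.1% in the other 4.

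Some directions turned, none of them of a called gene, and the causes were not tested. Shifting to the pan-epithelial genes gave log2 fold changes of -0.041 for Dsg2, -0.31 for Dsc3, -0.36 for Dsp, -0.28 for Dsg1c, -0.16 for Perp, -0.20 for Evpl and -0.16 for Kazn. The block on the number series, in which the library labelled JunBΔep replicate 0 is the only JunBΔep mouse of its series, gave -0.28 for Dsg4 and 0.066 for Ppl. It gave 1.41 for Dsg1b, 0.21 for Dsg2, 0.80 for Dsc1, 0.23 for Dsc3 and 0.19 for Dsp, and among the other desmosome genes 0.40 for Perp and 0.34 for Evpl, each over 1.5 times away from the value without a block. Over the fits that leave out 1 mouse the range was -0.17 to 1.62 for Dsg1b, -0.20 to 1.03 for Dsc1, -0.54 to 2.07 for Dsc2, -0.13 to 0.27 for Dsc3 and -0.22 to 0.24 for Dsp, in each of these 5 genes lowest without the library labelled JunBΔep replicate 0. Dsp was also at -0.0015 without control replicate 2. The range was -0.60 to 1.86 for Dsg4, below 0 without control replicate 0 (-0.056), control replicate 1 (-0.055) or JunBΔep replicate 1 (-0.60), and -0.18 to 0.073 for Ppl, above 0 without control replicate 0 (0.073), JunBΔep replicate 1 (0.061) or JunBΔep replicate 2 (0.026). Dsg1a, Dsg3, Jup and Pkp1 kept their sign in every alternative, with ranges over the fits that leave out 1 mouse of -0.76 to -0.55, 0.11 to 2.08, 0.10 to 0.67 and 0.03 to 0.72. In the last 3 the lowest value was without the library labelled JunBΔep replicate 0 and the highest without JunBΔep replicate 2. The number of reads behind the values is unknown, so low levels such as those of Dsg1c carry an unknown counting error.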

Other observations

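The other cell junctions of keratinocytes were looked at beside the desmosome. All 9 adherens junction genes had a log2 fold change above 0 with all mice and 8 without the library labelled JunBΔep replicate 0, where 53.4% and 54.0% of all genes tested were above 0. Their median was 0.35 and 0.33, and 0 were called by limma. By mouse, their median difference from the control mean stood at 0.65 for the library labelled JunBΔep replicate 0, 0.66 in JunBΔep replicate 1, the mouse with most hair marker signal, and 0.06 in JunBΔep replicate 2, which is within the -0.10 to 0.09 of the controls. The pan-epithelial genes, which share Cdh1 with this list, were at 0.65, 0.52 and 0.03 in the same libraries, and their part in these values was not tested. Cdh3, the P-cadherin of basal cells and hair matrix, was highest at 1.27 and Mllt4, the actin-binding afadin, lowest at 0.20. Among 7 hemidesmosome genes, which anchor basal cells to the basement membrane, 4 were above 0 and 3 below, with a median of 0.01 and 0 called by limma, and without that library 1 was above 0, with a median of -0.23. Itga6, an integrin chain of the hemidesmosome, was highest at 0.45 and Col17a1, its collagen, lowest at -0.74. At an unadjusted p below 0.05 there was 1 adherens junction gene, Pvrl1, and there were 0 hemidesmosome genes.

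Marker lists of other cells gave median log2 fold changes of -0.34 for basal keratinocytes, -0.05 for 6 suprabasal genes, -0.33 for stress keratins, -0.70 for fibroblasts, -0.19 for endothelium, -0.23 for leukocytes and -1.93 for adipocytes, with 0 genes called by limma in each and 0 at an unadjusted p below 0.05. The highest and lowest log2 fold changes were those of Itga6 (0.45) and Krt14 (-3.71) among basal markers, Krt1 (0.69) and Lor (-0.50) among suprabasal genes, Krt17 (1.11) and Krt6a (-1.78) among stress keratins, and Pdgfra (-0.18) and Dcn (-0.81) among fibroblast markers. They were Cdh5 (-0.10) and Tie1 (-0.27) for endothelium, Itgam (0.42) and Cd3e (-0.61) for leukocytes and Retn (-0.68) and Lep (-3.33) for adipocytes. For the lists described with the members they were Krt35 (2.94) and Hoxc13 (0.44) for hair, Krt13 (3.51) and Krt78 (-0.30) for mucosa, where Krt13 was above 0.4 FPKM only in the library labelled JunBΔep replicate 0, and Ttn (-2.64) and Myh2 (-3.74) for muscle. Several of the medians turned on the library labelled JunBΔep replicate 0. Without it, an alternative chosen after seeing the data, the medians were -0.18 for basal keratinocytes, -0.08 for suprabasal genes, 0.54 for stress keratins, -1.08 for fibroblasts, -0.17 for endothelium, -0.73 for leukocytes and 0.51 for adipocytes. In that library Krt14, Krt6a, Krt6b and Krt16 are listed at 0, which can be failed estimates, and the adipocyte markers summed to 4.15 FPKM beside 577 and 2657 FPKM in JunBΔep replicates 1 and 2 and 442 to 1109 FPKM in controls. Fibroblast markers were below 0 in 6 of 6 genes with and without it, where 45.9% of all genes tested were below 0 without it.

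Over the 6 mice the genes outside the list whose profile was most like the mean profile of the 10 members were Ago2 (Pearson r 0.9969), Dnajc13 (0.9968), Dnajc10 (0.9963), Mast4 (0.9959) and 4833423E24Rik (0.9935). The points share the high value of the library labelled JunBΔep replicate 0, and 162 of 13732 genes compared had an r above 0.95. These values describe likeness over 6 libraries and were not tested.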
